A study of Mus musculus with 28 samples.

Results

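Microglia of the E12.5 and E14.5 mouse brain (6 arrays) were set against E10.5 microglia (3 arrays) and, separately, against microglia of E16.5, E18.5 and the day of birth, P0 (9 arrays). A gene is called transient here when it differed in the same direction from both sides. These 18 arrays come from a series of 28 samples, which the deposited tables hold as 25 distinct arrays, and 863 of 10630 genes tested were transient. All animals carried the strain label C56BL/6, with no genetic change or treatment given, and the 6 stages are the only groups the labels set apart. The cells on an array came from a pool of several animals whose sex was not considered, and were sorted as CD45low CD11b+ F4/80+ CD64+ Ly6C- and hybridised to Illumina WG-6 bead arrays. The newborn brains had a longer collagenase digestion than the embryonic ones, so within the later group digestion time and birth cannot be told apart. Yolk sac macrophages of E10.5 embryos (YSM) and adult microglia of 2 months are given as outside reference levels.

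Microglia arise from yolk sac macrophages that enter the brain rudiment around the time circulation begins, then divide and spread through the tissue before they take on the sensing genes of the mature cell. In mid-gestation they sit close to growing axons, vessels and dying cells, and share many surface receptors with the macrophages of the meninges, perivascular spaces and choroid plexus (border macrophages). A sorted population at this age can therefore hold both kinds of cell, and in bulk RNA fewer cells of a type and less RNA per cell cannot be told apart.

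Of the sorting markers, Ptprc (CD45), Itgam (CD11b), Adgre1 (F4/80) and Fcgr1 (CD64) were detected on all 6 mid-gestation arrays, and the Ly6c1 probe on none of them. Between 14740 and 16100 probes were detected per mid-gestation array, against 14310 to 14840 at E10.5 and 16160 to 17940 in the later group. The ratio of the 75th percentile of signal to background was 1.70 to 2.02 at mid-gestation, 1.68 to 1.77 at E10.5 and 2.64 to 3.49 later. This brightness moved with age, and the 2 cannot be told apart in the comparison with the later group. Granulocyte and monocyte transcripts stood apart on E12.5 array 1 and E14.5 array 1, with mean log2 intensities of 8.13 and 8.11 over the list against 5.37 to 5.91 on the other 4 mid-gestation arrays. The number of arrays limits the precision of every value, and p-values measure the spread between these pools only. Each stage had its own mean in the model, so differences between stages joined in a group do not enter the SE or the p-values.

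Relative to E10.5, 2371 genes were higher at mid-gestation (22.3% of those tested) and 2589 lower (24.4%). Relative to the later group, 3401 were higher (32.0%) and 2557 lower (24.1%). The higher genes were 47.8% of those called against E10.5 and 57.1% of those called against the later group, and scaling each array to its 75th percentile instead moved these shares to 28.7% and 77.6%. Both comparisons use the same 6 mid-gestation arrays, so an array that stands apart enters both. In the same direction on both sides, 489 genes were higher (4.60%) and 374 lower (3.52%), by limma with Benjamini-Hochberg adjustment in each comparison. The median of the smaller of the 2 changes was 0.49 on the log2 scale for the higher genes and 0.45 for the lower ones, and it reached 1 in 41 and 17 genes. At the edge of the threshold, Epha5 had a larger adjusted p of 0.0497 and was counted, and Gm128 had 0.0502 and was not.

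**Figure D1:**
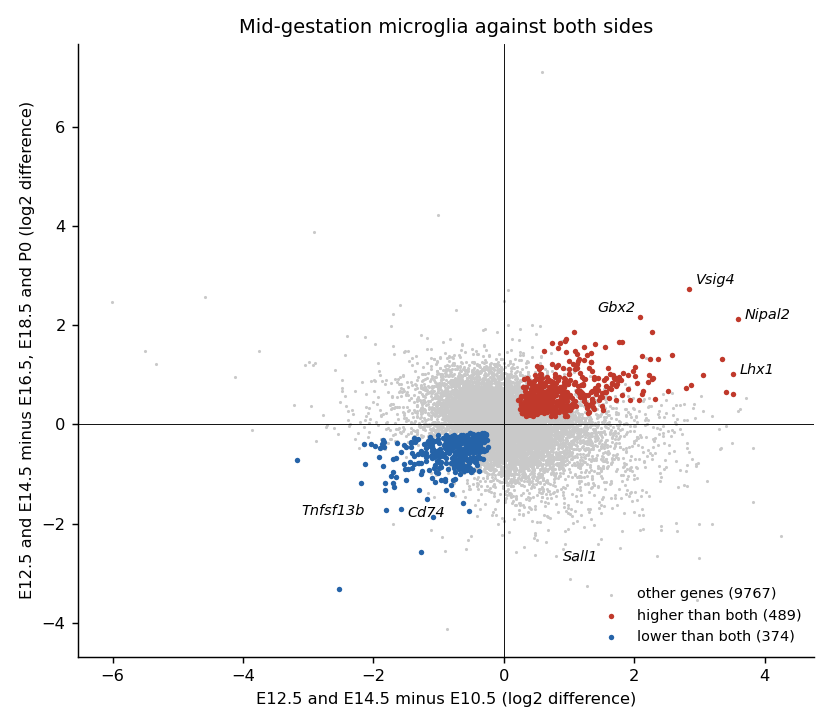
Each point is a gene, with its log2 difference of E12.5 and E14.5 from E10.5 on the x axis and from E16.5, E18.5 and P0 on the y axis. The 489 genes higher than both sides lie at the upper right and the 374 lower than both at the lower left.

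The 6 arrays lay wholly above the 12 flanking arrays for 151 of the higher genes, where 206 of all genes tested did so (1.94%), and wholly below them for 75 of the lower genes, where 91 did so (0.856%). With yolk sac macrophages and adults included they lay above all 19 other arrays for 80 higher genes (96 of all genes, 0.903%) and below them for 30 lower genes (36 of all genes, 0.339%). Taken 1 later stage at a time, 356 of the higher genes were called against E16.5 (25.5% of all genes), 322 against E18.5 (24.9%) and 338 against P0 (24.7%), and of the lower genes 246 were called against E16.5 (17.3%), 220 against E18.5 (where 1926 of the 10630 genes were) and 257 against P0 (18.8%). The rule used these same arrays, and the mean of these later stages, so such counts describe the called genes and test nothing further. E14.5 was the more extreme of the 2 stages in 416 higher and 289 lower genes. Those counts also come from the arrays that chose the genes, and no share over all genes stands beside them. The E14.5 minus E12.5 difference itself passed the test in 5 of the higher genes and 4 of the lower ones, where 93 (0.875%) and 54 (0.508%) of all genes were called up and down. When each of the 2 stages was set against each of the 4 flanking stages, all 8 differences were called for 71 higher genes (0.668%) and 34 lower genes (0.320%). Without E12.5 array 1 and E14.5 array 1, a setting chosen after the data were seen, 439 genes were higher and 435 lower, of which 396 and 322 were among the 489 and 374. Without E14.5 the counts fell to 193 and 156, and with stage as a random block to 303 and 214.

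Vsig4, a complement receptor of tissue macrophages, had the largest smaller-of-2 change among the genes whose arrays did not overlap. Its log2 intensity was 6.88, 6.82 and 7.66 on the E12.5 arrays and 8.90, 9.58 and 9.56 at E14.5. It was 5.30, 5.19 and 5.66 at E10.5 and ran from 5.01 through a median of 5.38 to 6.29 in the later group. Every mid-gestation array was above every flanking one, and E14.5 was above E12.5 by 2.23 (adjusted p = 0.000454 by limma). No E10.5 array was above background, so the rise was at least 3.68-fold (adjusted p = 7.34e-08). The later group was lower by a log2 difference of 2.74 ± 0.20 (SE, adjusted p = 4.14e-09), with 3 of its 9 arrays above background.

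Nipal2, of a family of magnesium transporters, was also higher than both sides. It read 7.95 to 8.98 on the mid-gestation arrays (median 8.37) and 4.93, 4.77 and 4.88 at E10.5, where it was below background. Later arrays ran from 4.80 to 7.30 with a median of 6.55, so the groups did not overlap, and the later median was above all E10.5 values. The rise was at least 4.29-fold (adjusted p = 1.2e-07) and the later difference was 2.13 ± 0.26 (adjusted p = 1.8e-06 by limma). Frmd6, a FERM protein of the Hippo pathway, lay between 9.38 and 9.85 (median 9.56) at mid-gestation, at 7.26, 7.07 and 7.64 at E10.5, and between 6.69 and 8.66 (median 7.59) later. Its differences were 2.26 ± 0.29 (adjusted p = 3.45e-06) and 1.86 ± 0.22 (adjusted p = 1.12e-06).

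The homeobox gene Gbx2 lay between 6.93 and 9.24 at mid-gestation, with the highest value on 1 E12.5 array. Its E10.5 values were 5.34, 5.88 and 5.41, all below background, and the rise was at least 2.43-fold (adjusted p = 0.000263 by limma). The difference from the later group was 2.16 ± 0.30 (adjusted p = 6.78e-06). Cpne8, Ociad2 and Spats2l were also higher on every mid-gestation array, and every other kept probe of these 3 genes was transient in the same way. Osr2, a zinc finger gene, was above background on 2 of the 6 mid-gestation arrays and on none of the flanking ones, so no fold against E10.5 is given. Cd200r1, the receptor for the neuronal ligand CD200, was below background at E10.5 and rose at least 2.02-fold (adjusted p = 0.000132 by limma). It was 1.38 above the later group with overlapping arrays, and was named after its values were seen.

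**Figure D2:**
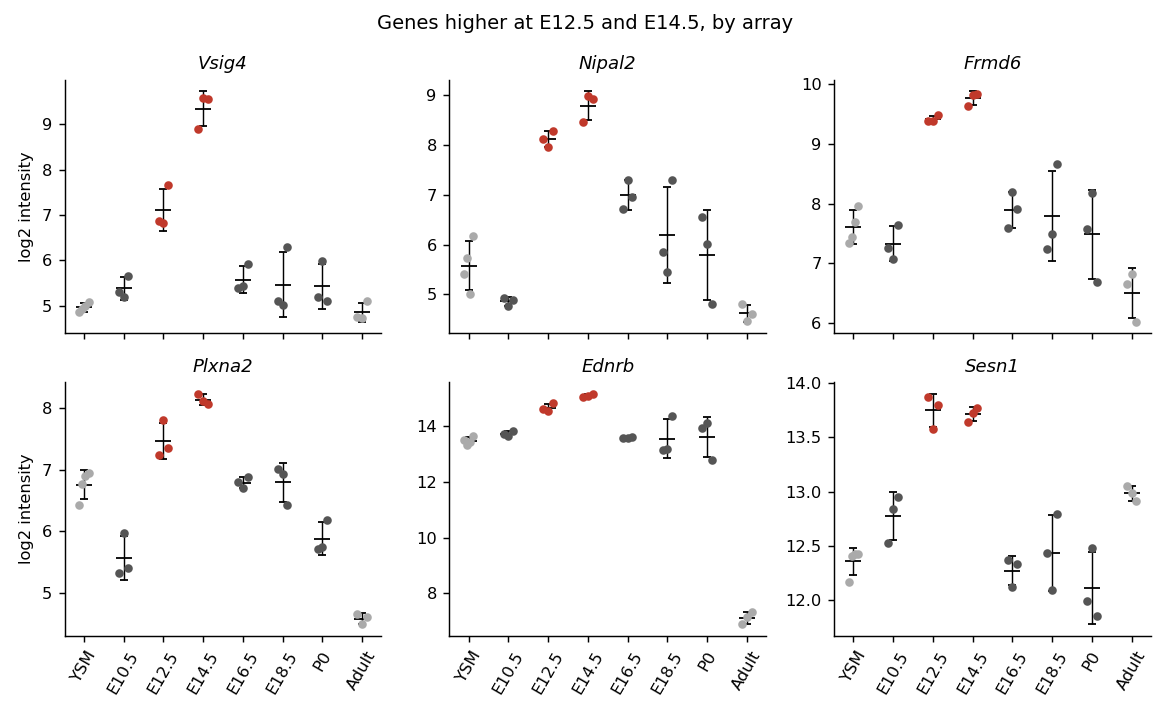
Log2 intensity of 6 genes on every array by stage. Points are arrays, bars the mean and SD, red E12.5 and E14.5, dark grey the flanking stages and light grey YSM and adult. In all 6 panels the red points lie above the dark grey ones.

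Border macrophage genes had the highest share of higher genes among the lists. Of 25 measured, 8 were higher than both sides (32.0% against 4.60% of all genes) and none was lower. The count was 13 with 75th percentile scaling and 5 without E12.5 array 1 and E14.5 array 1, when Timd4, Lyve1 and Dab2 lost their calls. With the stage E14.5 left out, only Ednrb and Igfbp4 of the 8 kept their calls. The mean log2 intensity over the list was 10.67, 10.44 and 10.74 at E12.5 and 11.33, 11.42 and 11.38 at E14.5. It was 10.67, 10.82 and 10.88 at E16.5, and E18.5 array 3 (11.55) and P0 arrays 1 and 2 (11.34 and 11.43) were as high as E14.5. Ednrb, the endothelin B receptor, read 14.60, 14.52 and 14.80 at E12.5 and 15.03, 15.06 and 15.14 at E14.5. It read 13.72, 13.63 and 13.82 at E10.5 and 12.78 to 14.34 later (median 13.56). The groups were apart, by 1.14 ± 0.24 (adjusted p = 0.000725) and 1.29 ± 0.18 (adjusted p = 8.56e-06 by limma), and both other probes were called the same way.

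Timd4, a phosphatidylserine receptor for dying cells, lay between 8.14 and 8.68 at mid-gestation, at 7.38, 7.28 and 7.63 at E10.5, and between 5.40 and 7.81 later. Its arrays did not overlap, but its E10.5 call was at the edge (adjusted p = 0.0472 by limma) and was lost on leaving out any of 18 of the 25 arrays, with smaller changes of 0.86 to 1.03. The lectin genes Clec10a and Clec4n, the chemokine Ccl24 and the IGF binding protein gene Igfbp4 were higher by 0.74 to 0.99 than the later group, with overlapping arrays. Lyve1, a hyaluronan receptor, differed from E10.5 by 3.52 and from the later group by 0.61, the latter at an adjusted p of 0.0494. Its call was lost on leaving out any of 17 arrays. The endocytic adaptor Dab2 differed by 0.88 and 0.55, and its call was lost on leaving out any of 3.

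The other 17 members of the list were not transient. Cd163, Cd209f and Cbr2 were higher than E10.5 but lower than the later group, Cd209f by a log2 difference of -2.10 and Cbr2 by -1.82. Stab1 and Pf4 rose from E10.5 by 2.16 and 2.37, and their differences from the later group were 0.08 and 0.28. The summed intensity of the list was 219000 to 323400 at mid-gestation, 82860 to 109300 at E10.5 and 121400 to 311600 later, so the sum overlapped with the later group and not with E10.5. The part of border macrophages among the sorted cells in these results was not tested. The list median was 1.80 against E10.5 and 0.33 against the later group, where the medians of all genes were -0.01 and 0.05.

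Of the complement and efferocytosis list, 4 of 26 members were transient and higher (15.4% against 4.60% of all genes) and 15 were lower than the later group (24.1% of all genes were), with 2 higher and 2 lower transient members without E12.5 array 1 and E14.5 array 1. The 4 included Timd4 and Clec4n, which the border macrophage list also holds. The scavenger receptor Stab2 was above background on 5 mid-gestation arrays, 2 later arrays and no E10.5 array, and its call was lost on leaving out any of 4 arrays (0.54, adjusted p = 0.178 by limma without E10.5 replicate 1). The scavenger receptor Msr1 differed by 1.24 and 0.59, and its call was lost on leaving out any of 9 arrays. The complement components C1qa, C1qb and C1qc instead were higher than E10.5 and lower than the later group.

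Of 22 guidance genes measured, 3 were higher than both sides (13.6% against 4.60% of all genes), all of them plexins, receptors for semaphorin cues. The other plexins measured, Plxnb2 and Plxnb3, were higher than E10.5 by 0.66 and 0.82 and differed from the later group by -1.12 (adjusted p = 2.61e-08 by limma) and -0.48 (adjusted p = 0.0546). Plxna2 read 7.24, 7.80 and 7.36 at E12.5 and 8.23, 8.11 and 8.07 at E14.5. It read 5.32, 5.97 and 5.40 at E10.5, where it was below background, and 5.71 to 7.02 later (median 6.70). The mid-gestation arrays were above all flanking ones, the rise was at least 2.74-fold (adjusted p = 6.17e-09) and the later difference was 1.31 ± 0.13 (adjusted p = 1.22e-07 by limma). Plxnc1 differed by 0.74 ± 0.20 from E10.5 and by 1.64 ± 0.15 from the later group, also without overlap. Plxnd1 differed by 1.23 and 0.91 with some later arrays as high.

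Nutrient sensing and autophagy genes included 4 that were higher and 1 that was lower of 30, where 4.60% and 3.52% of all genes were. With 75th percentile scaling the counts were 2 and 1. Sesn1, a sestrin that restrains mTORC1, read 13.87, 13.58 and 13.80 at E12.5, 13.64, 13.73 and 13.77 at E14.5 and 12.53, 12.84 and 12.95 at E10.5. The later group ran from 11.85 to 12.79 (median 12.33). No flanking array reached the mid-gestation ones, the differences were 0.96 ± 0.15 (adjusted p = 2.62e-05) and 1.46 ± 0.11 (adjusted p = 6.38e-09 by limma), and both other probes were called the same way. Rragc, a Rag GTPase that brings mTORC1 to the lysosome, differed by 0.75 and 0.23, and lost its call on leaving out E12.5 replicate 3 (0.20, adjusted p = 0.0563). Lamtor2, a part of the Rag anchor, differed by 0.46 and 0.53, and its call was lost without E10.5 replicate 1 (0.47, adjusted p = 0.0538) or replicate 2 (0.37, adjusted p = 0.115) and under 4 of 20 other settings. Sesn2, another sestrin, was counted as lower, but its call was lost on leaving out any of 9 arrays (-0.28, adjusted p = 0.175 without E12.5 replicate 2) and under 15 of 20 other settings, and 2 of 6 mid-gestation arrays were above background.

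In iron handling, Slc40a1, the iron exporter ferroportin, lay between 14.25 and 15.43 at mid-gestation against 12.89, 12.72 and 13.19 at E10.5 and 13.29 to 14.58 later. It overlapped with the later group, and differed by 2.01 ± 0.22 (adjusted p = 4.93e-07) and 0.99 ± 0.16 (adjusted p = 4.57e-05 by limma). Blvra, which reduces biliverdin, was apart from the flanking arrays with 0.68 and 0.56, and lost its call with 75th percentile scaling (0.30, adjusted p = 0.224 by limma). Abca1, a cholesterol exporter, was below background at E10.5 and rose at least 1.36-fold, and was 0.94 above the later group.

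The largest fall among genes with arrays apart was in Tnfsf13b, which encodes the B cell survival factor BAFF. It read 5.72, 6.32 and 5.88 at E12.5, 6.45, 5.78 and 5.68 at E14.5 and 7.25, 8.68 and 7.41 at E10.5. The later group ran from 6.57 to 10.04 (median 7.80), and the mean in adults was 11.88. All 6 mid-gestation arrays were below the flanking ones, with 2 of the 6 above background, by a log2 difference of -1.80 ± 0.51 (adjusted p = 0.00627) and -1.72 ± 0.38 (adjusted p = 0.000714 by limma). Without E10.5 replicate 2 its smaller change was -1.35 with an adjusted p of 0.0651.

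Cst7, an inhibitor of cysteine proteases known from activated microglia, was below background on all 6 mid-gestation arrays. It read 6.44, 6.47 and 7.0 at E10.5 and 6.26 to 7.65 later, so the fall was at least 1.43-fold from E10.5 (adjusted p = 0.000113) and at least 1.45-fold relative to the later group (adjusted p = 3.37e-06 by limma). Setd5, a chromatin regulator, lay between 5.54 and 7.47 at mid-gestation, at 8.16, 8.51 and 8.35 at E10.5 and between 7.53 and 8.31 later, apart on both sides and above background on 4 of the 6 mid-gestation arrays. Its differences were -1.70 ± 0.29 and -1.19 ± 0.22. Ptk2b, the kinase Pyk2, lay between 6.85 and 7.30, against 8.39, 8.53 and 8.34 at E10.5 and 7.54 to 8.24 later. It differed by -1.40 ± 0.15 (adjusted p = 2.97e-07) and -0.88 ± 0.11 (adjusted p = 2.18e-06 by limma), with no overlap.

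Cd74, the invariant chain of class II antigen presentation, differed by -1.58 ± 0.61 and -1.71 ± 0.45, and 1 E10.5 array stood at 10.10 where the other two read 8.46 and 8.31. Its call was lost on leaving out any of 5 arrays and under 8 other processing settings. Ifnb1, named after its values were seen, encodes interferon beta and was below background on all 6 mid-gestation arrays. It was at least 2.51-fold lower than E10.5 (adjusted p = 0.0298) and at least 4.35-fold lower than the later group (adjusted p = 0.000419 by limma), but its later arrays ran from 4.56 to 10.85 and overlapped, with the highest stage mean at E16.5 (10.73). It lost its call on leaving out E10.5 replicate 1 (-2.49, adjusted p = 0.0793), E10.5 replicate 3 (-1.87, 0.165) or E14.5 replicate 1 (-2.43, 0.0513), and under 11 of 20 other processing settings.

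**Figure D3:**
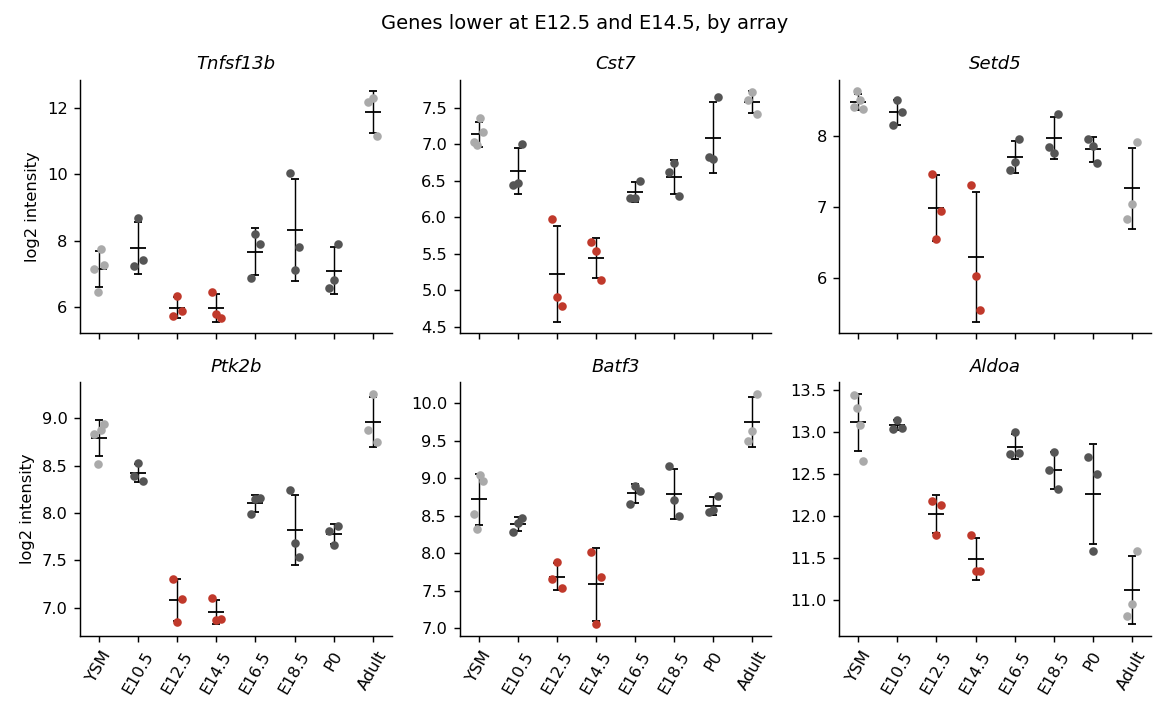
Log2 intensity of 6 genes on every array by stage, drawn as in the plot of the higher genes. In 5 panels the red points lie below all dark grey ones, and in Aldoa 1 P0 array (11.58) lies among them.

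Among macrophage transcription factors, 3 of 33 were lower than both sides and 1 was higher, where 3.52% and 4.60% of all genes were. Batf3, a factor of dendritic cells and macrophages, read 7.65, 7.88 and 7.53 at E12.5 and 8.02, 7.05 and 7.68 at E14.5. It read 8.28, 8.40 and 8.48 at E10.5 and 8.50 to 9.16 later. The groups were apart, by -0.75 ± 0.20 (adjusted p = 0.00403) and -1.10 ± 0.15 (adjusted p = 5.14e-06 by limma), and the other probe was called the same way. Spi1, which encodes PU.1, differed by -0.65 and -0.62 and Stat3 by -0.86 and -0.89, both with overlapping arrays. Of 35 genes measured on the chromatin modifier list, 3 were lower than both sides (8.57% against 3.52% of all genes) and none was higher. Against the later group 10 of the 35 were higher and 11 lower (32.0% and 24.1% of all genes), with a median of 0.04. The 3 were the chromatin remodelling genes Smarca4, Chd4 and Mbd3. They differed by -0.65, -0.39 and -0.51 from E10.5 and by -0.63, -0.52 and -0.71 from the later group. Mbd3 lost its call without E10.5 replicate 2 (-0.45, adjusted p = 0.0765 by limma).

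Of 17 glycolysis genes measured, 7 were lower than both sides (41.2% against 3.52% of all genes) and none was higher, and with 75th percentile scaling 2 were lower. The 7 included Pfkl, Aldoa, Gapdh, Pgam1 and Pkm, which encode enzymes of the pathway. The others were the glucose carrier gene Slc2a1 and Pdk1, which encodes a pyruvate dehydrogenase kinase. Aldoa read 12.18, 11.77 and 12.13 at E12.5, 11.77, 11.35 and 11.34 at E14.5 and 13.04, 13.15 and 13.05 at E10.5. The later group ran from 11.58 to 12.99 (median 12.71), with 1 P0 array among the mid-gestation values. The differences were -1.32 ± 0.22 (adjusted p = 5.87e-05) and -0.79 ± 0.16 (adjusted p = 0.000423 by limma). Pgam1 differed by -1.20 and -0.65, Pkm by -0.87 and -0.56 and Slc2a1 by -1.27 and -0.54.

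Other members moved apart from these. Ldha, Tpi1 and Pgk1 were lower than E10.5 by log2 differences of -1.29, -1.38 and -1.05, and differed from the later group by 0.12, 0.29 and 0.03, none of which passed the test. Slc2a3 and Pfkp were lower than E10.5 and higher than the later group. The list medians were -0.92 and -0.35. With values scaled to the 75th percentile, where the median of all genes itself moved to -0.19 and 0.29, Aldoa and Pgam1 kept their calls, Pkm, Pfkl, Pdk1 and Slc2a1 lost theirs, and Gapdh turned to 0.23 above the later group. A random stage block lost Slc2a1, Gapdh, Pfkl and Pdk1, the mean of all kept probes lost Pgam1, Pfkl and Pdk1, and Pdk1 was also lost on leaving out any of 6 arrays.

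**Figure D4:**
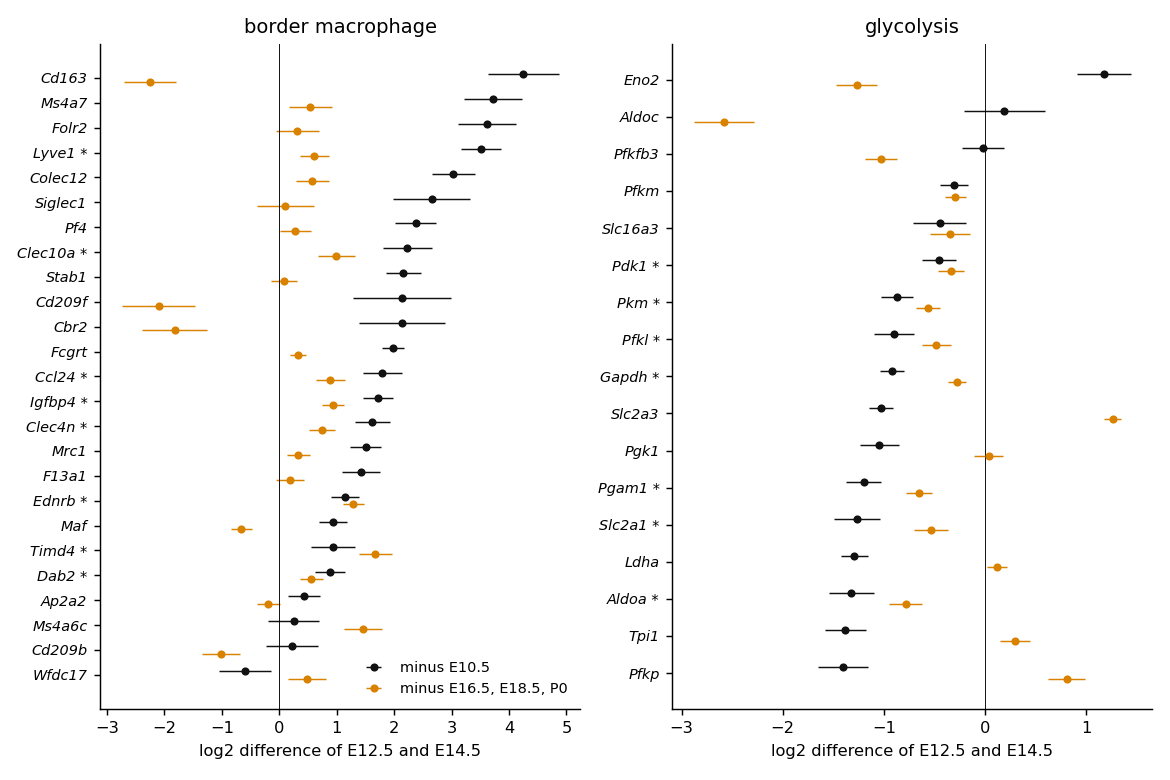
Log2 difference of E12.5 and E14.5 from E10.5 (black) and from E16.5, E18.5 and P0 (orange) with SE for each measured gene of the border macrophage and glycolysis lists. Stars mark the transient genes, 8 with both points to the right of 0 in the first list and 7 with both to the left in the second.

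The 250 bases upstream of the start site are shown for 4 of these glycolysis genes, chosen after their values were seen, because each window holds ACGTG on either strand, the core of the element that hypoxia-inducible factors bind. The sequences are from RefSeq on GRCm38.p6, written 5′ to 3′ on the gene's strand with the match in capitals. A match on the opposite strand reads CACGT, or CACGTGA for TCACGTG, and ACGTG is part of TCACGTG.
Aldoa (chr7:126799255-126799504, minus strand): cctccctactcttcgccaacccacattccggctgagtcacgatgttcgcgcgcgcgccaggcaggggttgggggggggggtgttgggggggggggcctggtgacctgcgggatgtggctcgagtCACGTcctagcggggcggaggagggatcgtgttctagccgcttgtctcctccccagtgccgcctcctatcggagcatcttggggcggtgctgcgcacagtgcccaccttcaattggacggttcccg
Pgam1 (chr19:41911621-41911870, plus strand): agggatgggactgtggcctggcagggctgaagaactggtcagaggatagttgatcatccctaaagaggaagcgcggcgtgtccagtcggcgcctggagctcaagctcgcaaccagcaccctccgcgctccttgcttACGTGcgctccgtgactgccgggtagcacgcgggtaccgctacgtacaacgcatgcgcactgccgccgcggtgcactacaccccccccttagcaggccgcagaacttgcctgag
Pkm (chr9:59656977-59657226, plus strand): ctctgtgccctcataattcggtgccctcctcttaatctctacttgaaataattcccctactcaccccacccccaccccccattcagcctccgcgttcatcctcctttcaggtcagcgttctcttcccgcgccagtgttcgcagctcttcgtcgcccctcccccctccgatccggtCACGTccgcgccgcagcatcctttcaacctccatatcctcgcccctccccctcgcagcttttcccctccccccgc
Slc2a1 (chr4:119108495-119108744, plus strand): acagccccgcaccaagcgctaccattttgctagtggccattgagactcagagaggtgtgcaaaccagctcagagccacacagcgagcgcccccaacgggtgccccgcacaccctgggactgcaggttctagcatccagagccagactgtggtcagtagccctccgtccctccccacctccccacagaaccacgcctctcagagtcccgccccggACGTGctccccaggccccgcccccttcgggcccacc

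Windows were at hand for 8644 of the 10630 genes. ACGTG stood in 25.1% of them, in 9 of 16 windows of the glycolysis list, in 24.3% of the transient higher genes and in 29.9% of the transient lower ones. Ldha and Pgk1, which were not transient, also held it. TCACGTG, the E-box of lysosomal and autophagy genes, stood in 5.87% of all windows, 7.34% of the higher genes and 6.60% of the lower ones, and GAGGAAGT, a sequence that PU.1 binds, in 3.01%, 2.78% and 3.46%. These matches are a description of the letters only.
Rragc, a higher gene, is shown for its TCACGTG (chr4:123917183-123917432, plus strand): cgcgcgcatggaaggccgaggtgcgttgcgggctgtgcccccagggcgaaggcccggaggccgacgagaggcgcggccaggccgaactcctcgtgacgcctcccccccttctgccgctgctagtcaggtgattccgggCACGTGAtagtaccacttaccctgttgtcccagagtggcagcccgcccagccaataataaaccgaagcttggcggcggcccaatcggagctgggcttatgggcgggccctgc

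Sterol synthesis fell mainly from E10.5, where 15 of 17 measured genes were lower (24.4% of all genes were), with a list median of -1.11. Against the later group 4 were higher and 4 lower, shares below those of all genes (32.0% and 24.1%), with a median of 0.03. Transient and lower were Srebf2, the regulator of the pathway, and the enzyme genes Pmvk and Lss (17.6% against 3.52% of all genes). Their later differences of -0.45, -0.29 and -0.27 were small. Their calls were lost on leaving out any of 6, 7 and 17 arrays. Of 15 hypoxia response genes measured, 1 was transient, the lower gene Egln3 (6.67% against 3.52% of all genes). Against E10.5, 2 of the 15 were higher and 2 lower (22.3% and 24.4% of all genes), with a median of 0.19. Against the later group 4 were higher and 6 lower (32.0% and 24.1% of all genes), with a median of -0.20. Egln3 lay between 6.73 and 7.24 against 8.69, 8.96 and 8.31 at E10.5 and 6.92 to 8.98 later. It differed by -1.65 ± 0.33 and -1.05 ± 0.25.

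Of 20 ribosomal genes measured, Rpl19, Rps15 and Rps19 were lower than both sides (15% against 3.52% of all genes). So were Cs and Suclg2 of 14 citric acid cycle genes (14.3%) and Uqcrc1 and Atp5d of 37 respiratory chain genes (5.41%). Their log2 differences ran from -0.72 (Suclg2 against E10.5) to -0.18 (Atp5d against the later group). Most called members of the 3 lists were instead higher than the later group. There, 6 ribosomal genes were higher and 3 lower, 7 and 3 citric acid cycle genes, and 22 and 2 respiratory chain genes. Of all genes, 32.0% were higher and 24.1% lower. Against E10.5, 9, 9 and 21 members of the 3 lists were lower and 1, 0 and 2 higher, where 24.4% and 22.3% of all genes were. Scaled to the 75th percentile, none of the 7 transient genes was called, and the smaller changes of Rpl19, Rps19, Cs, Uqcrc1 and Atp5d had the opposite sign.

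Some lists that differed in opposite directions from the 2 sides held no transient gene. Of 23 homeostatic microglia genes, 20 were higher than E10.5 (22.3% of all genes were) and 21 lower than the later group (24.1%), with medians of 1.25 and -1.21. Of 33 DNA replication genes, 30 were lower than E10.5 (24.4% of all genes) and 30 higher than the later group (32.0%), with medians of -0.83 and 0.75. Sall1, a regulator of microglial identity, differed by 0.80 from E10.5 and by -2.66 from the later group, with E14.5 above E12.5 by 1.24 (adjusted p = 0.00956 by limma). Igf1 was 2.20 above E10.5 and differed from the later group by 0.01 (adjusted p = 0.971). Cxcr4 and Irf8 did not pass the test against E10.5 (0.11 and 0.02) and were lower than the later group, by -1.46 and -0.70.

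Transcripts of other cells were present. Of 24 neuronal genes measured, 17 were higher than E10.5 (22.3% of all genes were), and 3 were higher and 5 lower than the later group (32.0% and 24.1%). Their summed intensity was 3583 to 13350 at mid-gestation, 2739 to 3128 at E10.5 and 6870 to 20690 later. Lhx1 and Ebf3 were the transient ones, both higher (8.33% against 4.60% of all genes), and the part of neuronal RNA in the result was not tested. Their calls were lost on leaving out any of 6 and 4 arrays. Of 17 endothelial and mural genes, Pecam1, Eng and Anpep were lower than both sides (17.6% against 3.52% of all genes). Against E10.5, 3 of the 17 were higher and 6 lower (22.3% and 24.4% of all genes). Against the later group 1 was higher and 5 lower (32.0% and 24.1%). The Pecam1 call was lost on leaving out any of 3 arrays, and the Anpep call without E10.5 replicate 3. The list summed to 3171 to 6308 at mid-gestation, 5245 to 6638 at E10.5 and 3048 to 6409 later, with Tie1, Kcnj8 and Anpep on no mid-gestation array. Granulocyte and monocyte genes summed to 1564 to 12010, 27570 to 52270 and 2591 to 4318 in the 3 groups at mid-gestation, E10.5 and later, and held no transient gene.

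For 314 of the 489 higher genes and 240 of the 374 lower ones, the later group and E10.5 did not differ by the test. Of the rest, 145 higher genes were above E10.5 later and 30 below it. For the lower genes these counts were 15 and 119. Of all genes, 31.7% were called above E10.5 later and 36.4% below it. The rule asks for the same direction from E10.5 and from the later group, which favours genes alike in these groups. The uncalled counts therefore do not show a return to the E10.5 level. Mid-gestation was above adults in 278 of the higher genes (34.3% of all genes) and below them in 68 (28.2%), and for the lower genes these counts were 59 and 166. From the later group to adults, 170 of the higher genes rose (28.3% of all genes) and 173 fell (30.2%), and of the lower genes 68 rose and 140 fell. Yolk sac macrophages were below mid-gestation in 413 higher genes (30.1% of all genes) and above it in 326 lower genes (32.8%). Each of these comparisons shares arrays with the rule that chose the genes, so counts and shares are only set side by side. Ednrb had a mean of 13.47 in yolk sac macrophages and 7.12 in adults, and Sesn1 had 12.36 and 12.99. Second probes were kept for 199 higher and 144 lower genes. Of these other probes, 142 of 279 and 133 of 199 pointed the same way on both sides, and 56 of each were themselves called.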

How the data were processed

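Signal intensities and detection p-values per probe were deposited by the authors, who scanned Illumina WG-6 version 2 arrays, exported them with GenomeStudio and normalised them with lumi (versions not given in the sources used here). The main table is not normalised, and the authors' quantile-normalised intensities, deposited as a table and as the series matrix, served as alternatives. Of 28 columns, 3 repeated others exactly, so 25 arrays were used. Column names give the group and not the sample, so array numbers only name arrays. With limma 3.58.1 in R 4.3.3, neqc corrected background using the detection p-values (offset 16) and quantile normalised all arrays, so values are log2 intensities and low changes are understated. A probe was retained if 3 or more arrays gave it a detection p below 0.01, which 19789 of 45281 did. Of all probes, 34885 had 1 gene symbol, 18 several and 10378 none in the platform annotation. Each gene was read from its brightest kept probe (10630 genes).

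One linear model with a mean per group gave both contrasts (17 residual degrees of freedom). P-values were adjusted by Benjamini-Hochberg over all genes within each contrast, at 0.05. Where a group was below background on every array, "at least N-fold" sets the bright group's mean against the higher of the probe's own value and the lowest signal above background on each array. Genes named were the 15 with the largest smaller change per direction among those with arrays apart, up to 4 transient genes per list, and genes the study names. Lyve1, Dab2, Rragc, Gapdh, Pfkl, Pdk1, Coro1a, Ifnb1, Cd200r1, the upstream windows shown and the list members named although not transient were chosen after their values were seen. The members and the 51 gene lists were chosen with earlier results of these data known. The procedure was tested on simulated data. Settings tried are in the closing section. Results for some of the lists are not reported here.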

Additional observations from a re-analysis of the deposited data

Results flagged for a closer look

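In 13 of 220 groups of named genes, 1 array stood far from the others of its group, where chance gives about 1 in 20. Among the 6 mid-gestation arrays, E12.5 replicate 2 was high for Osr2 (8.27) and Nfatc4 (8.12) and low for Gprc5c (6.23). E12.5 replicate 1 was high for Uqcrc1 (12.08), Rrp9 (9.22) and Pecam1 (8.44) and low for Map1lc3b (9.56), and E14.5 replicate 1 was high for Chac1 (5.66). Among the 9 later arrays, E18.5 replicate 1 was high for Tnfsf13b (10.04) and P0 replicate 3 for Cst7 (7.65), P0 replicate 2 was low for Aldoa (11.58) and Pgam1 (9.04), and E16.5 replicate 2 was low for Lamtor2 (9.28).

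E12.5 and E14.5 differed from each other in 3 named genes. The log2 difference of E14.5 from E12.5 was 2.23 for Vsig4 (adjusted p = 0.000454), -1.85 for Ier2 (adjusted p = 0.0251) and 1.24 for Sall1 (adjusted p = 0.00956 by limma).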

How the results depend on the processing

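The counts were 489 higher and 374 lower genes. Scaling to the 75th percentile left 1448 genes higher than E10.5 and 1432 lower than the later group, and gave 379 and 274 transient genes, of which 236 and 195 were among the original ones. Leaving out E14.5 gave 1537 and 1725 genes higher and lower than E10.5 and 193 and 156 transient genes. A random stage block gave 303 and 214, a change of at least 1.5-fold on both sides 175 and 119, and a call in every stage pair 71 and 34. Leaving out 1 array gave 375 to 551 higher and 285 to 414 lower transient genes, 1887 to 2487 higher and 2097 to 2759 lower than E10.5, and 3141 to 3502 higher and 2273 to 2642 lower than the later group. The other settings stayed within 1.5 times these counts, including that without E12.5 array 1 and E14.5 array 1, chosen after seeing the data. No gene was called in the opposite direction under any setting.

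Whether samples with the same number in their titles belong together is not known, and 3 samples per stage are too few to tell. These title numbers, used with the series matrix, are not the array numbers given above. On the series matrix, the deviations of 45 same-numbered pairs had a median correlation of -0.029 (-0.635 to 0.469), 10 of them over 0.1. There the replicate block gave 629 and 434 transient genes against 648 and 444 without it.

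Some smaller changes turned sign. With 75th percentile scaling these were Atp6v0d1 (-0.011), Uqcrc1 (0.16), Atp5d (0.21), Cs (0.059), Rpl19 (0.017), Rps19 (0.17), Srsf2 (0.34), Cd79b (0.0945), Gapdh (0.23) and Coro1a (0.21). With the mean of all kept probes they were Atp6v0d1 (-0.18), Rps19 (0.23), Itga6 (0.25), Bmpr2 (-0.44), Slc11a1 (-0.38), Srsf2 (5e-04), Arhgef6 (-0.22) and Pdk1 (0.17). Il18rap gave 0.11 with the 18 arrays fitted alone and 0.055 on the series matrix with or without the replicate block, and Ier2 gave -0.24 without E12.5. Against the later group Igf1 gave -0.14 without E14.5 and -0.14 without E18.5. Its leave-one-out fit with the smallest adjusted p gave 0.058, of unchanged sign. Against E10.5 Irf8 gave -0.32 with 75th percentile scaling, -0.11 without E14.5 and -0.074 without E12.5 array 1 and E14.5 array 1. Its leave-one-out fit with the smallest adjusted p gave 0.11, of unchanged sign. Cxcr4 gave -0.46 against E10.5 on leaving out 1 array. The cause was not tested. Of 113 transient genes followed, 69 kept their call on leaving out any array, 61 without E14.5, 73 with the random block, 100 without E12.5 array 1 and E14.5 array 1, and 75 with 75th percentile scaling.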
